A study of Rattus norvegicus with 30 samples.

Results

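In primary rat hepatocytes, 24 h with 500 µM acetaminophen raised 141 genes and lowered 103 of 8531 tested. Of the rises, 46 belonged to 8 lists of fatty acid uptake, oxidation, lipid droplet and fasting genes. They are called lipid oxidation genes here, though some do not themselves oxidize fatty acids, such as the glycerol genes Gk and Aqp7. The comparison comprised 10 of the 30 arrays of the series, chosen by their labels: 5 arrays of wells given 500 µM acetaminophen and 5 of wells given the vehicle alone, 1% DMSO, both harvested at 24 h. The cells were frozen hepatocytes of male Sprague Dawley rats, bought from a supplier, thawed onto collagen under a Matrigel overlay and dosed on day 3 of culture. Wells at 5000 µM, and wells of all 3 treatments at 48 h, are used here only beside this comparison. Every group, treated or not, carried DMSO, and the 5 arrays of a group are 5 separate wells, so a p-value here reflects variation among wells of cultured cells, not among rats.

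RNA was hybridised to Affymetrix rat arrays of 31099 probe sets, and levels are given as the deposited signal, a linear brightness on which each array has about the same trimmed mean (1500.55 to 1500.66). A gene stands for its brightest probe set, and levels of different genes are not compared. Changes are log2 differences, 500 µM minus vehicle, with the standard error (SE) of a limma model over all 30 arrays, and a gene "rose" or "fell" when its Benjamini-Hochberg adjusted p was under 0.05 over the 8531 genes tested. A gene given in the 24 h comparison as being at a value has that log2 difference and was not called. All 10 hepatocyte markers measured were tested, at mean signals of 12770 to 71531, and in limma 0 of them were called and 0 had an unadjusted p under 0.05. Of the Kupffer cell and leukocyte markers 3 of 11 (Cd68, Cd14 and Lyz2) were bright enough to test, of stellate cell and fibroblast markers 2 of 11, of endothelial markers 2 of 8 and of cholangiocyte markers 2 of 6, and in limma 0 of these 9 were called and 0 had an unadjusted p under 0.05. Over all genes, 1585 of the 8531 tested had an unadjusted p under 0.05 in limma, and counts at that threshold stand beside this share.

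Arrays of the same group correlated at 0.981 to 0.993. As a measure of RNA length, the actin ratio compares β-actin controls near the 3' end with those near the 5' end, in log2, and is higher where RNA is shorter. Vehicle arrays had an actin ratio of 1.78 ± 0.24 (SD, n = 5) and 500 µM arrays 1.61 ± 0.33, a difference of -0.16 (exact permutation test, two-sided, p = 0.413, where 0.00794 is the smallest p possible). The same ratio for GAPDH controls was 0.23 ± 0.062 in vehicle and 0.15 ± 0.057 at 500 µM, a difference of -0.077 (exact permutation test, two-sided, p = 0.0873), with overlapping ranges of 0.154 to 0.302 and 0.0868 to 0.232. Each group had 3 arrays above and 2 below the widest gap in the actin ratio, at 1.54 to 1.74, and the 500 µM arrays 4 and 5 were the lowest of the 10, at 1.26 and 1.28. The part of these ratios in the results was not tested beyond the values given beside them. Vehicle array 1 had a median signal of 401, the highest of all 30 arrays, against 315 to 340 in the other vehicle arrays at 24 h. In the signals printed below it was the lowest vehicle well for Cyp4a1, Ehhadh and Acsl1 among others, and not for Pdk4, G0s2 or Spc24 among others.

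Acetaminophen is cleared by the liver mostly as its glucuronide and sulfate, and a part is oxidized by cytochromes P450, Cyp2e1 among them, to a reactive quinone imine that glutathione captures. Fatty acids are handled by another set of enzymes: they are carried in by Cd36 and Slc27 proteins, bound by Fabp1, activated to acyl-CoA by Acsl1 and then oxidized in mitochondria, in peroxisomes, or at their methyl end by Cyp4a enzymes. In rodent liver the nuclear receptor PPAR-alpha, which binds fatty acids and pairs with RXR, is the best known inducer of this set during fasting, and it binds DNA at direct repeats of AGGTCA separated by a base.

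A looser form of such a repeat, with AGGNCA as its unit, stands in the promoter of Fabp1, the liver fatty acid binding protein and a member of the set that rose. In it 1 of the 2 units reads AGGTCA. It is shown with the promoters of Cyp4a3 and Acot12, which hold a lone AGGTCA. Each window is the 250 bases before the annotated start of the gene in RefSeq (build GRCr8), 5′ to 3′ on the gene's strand, with matches in capitals. Fabp1 lies at chr4:104749090-104749339 on the plus strand, and the capitals mark the match to AGGNCA repeated after 1 base of any kind, read on the opposite strand and starting 77 bases before the gene. Cyp4a3 lies at chr5:134352237-134352486 on the minus strand and Acot12 at chr2:24721709-24721958 on the plus strand, with AGGTCA in capitals, on the gene's own strand in Cyp4a3 and on the opposite strand in Acot12.
Fabp1: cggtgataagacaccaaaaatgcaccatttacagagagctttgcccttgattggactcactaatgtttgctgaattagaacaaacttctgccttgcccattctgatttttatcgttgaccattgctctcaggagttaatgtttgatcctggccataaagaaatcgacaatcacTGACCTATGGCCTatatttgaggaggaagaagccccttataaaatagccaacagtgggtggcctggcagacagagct
Cyp4a3: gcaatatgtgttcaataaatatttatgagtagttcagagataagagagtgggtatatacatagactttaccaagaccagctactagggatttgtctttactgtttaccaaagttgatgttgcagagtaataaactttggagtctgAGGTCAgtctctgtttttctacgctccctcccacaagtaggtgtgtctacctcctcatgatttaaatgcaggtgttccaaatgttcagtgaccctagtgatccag
Acot12: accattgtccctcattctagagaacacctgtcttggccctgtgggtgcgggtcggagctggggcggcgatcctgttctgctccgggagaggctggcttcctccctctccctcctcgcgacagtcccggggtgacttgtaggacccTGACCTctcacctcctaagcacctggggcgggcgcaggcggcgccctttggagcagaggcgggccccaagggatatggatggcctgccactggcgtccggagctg
On either strand, this repeat was found in 123 of 33469 such windows (0.368%), and among 40 of the 46 lipid oxidation genes that rose, those with a RefSeq window, only in Fabp1. The shorter AGGTCA, which the longer motif can contain, was found in 4707 of 33469 windows (14.1%) and in those of 10 of the 40 genes: Acadvl, Acot12, Acot4, Acot8, Creb3l3, Cyp4a3, Eci1, Fabp1, Hsd17b4 and Retsat. A match describes the letters of the window and not the binding of a factor, and more distant sequence was not searched.

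Changes at 500 µM were small in size. Of the 8531 genes, 2.86% were called, 1.65% higher and 1.21% lower. Only 3 rises and 2 falls reached 2-fold, 23 and 10 reached 1.5-fold, and the median size of a called change was 0.33 (log2) among rises and 0.36 among falls. The 5 treated arrays lay entirely above or below the 5 vehicle arrays for 405 genes (4.75%), 2.32% above and 2.43% below, among them 117 of the 141 rises and 74 of the 103 falls. Over all tested genes the changes had a median of -0.02. With each array centred on its own median the count was 51, 43 rises (0.504% of genes) and 8 falls (0.0938%). Without the 500 µM array 5 it was 116 (81 and 35), and without vehicle array 1 it was 155 (96 and 59). With the GAPDH ratio as a covariate, an alternative added after seeing the data, it was 111 (81 and 30), of which 99 were among the 244 and had the same direction.

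**Figure D1:**
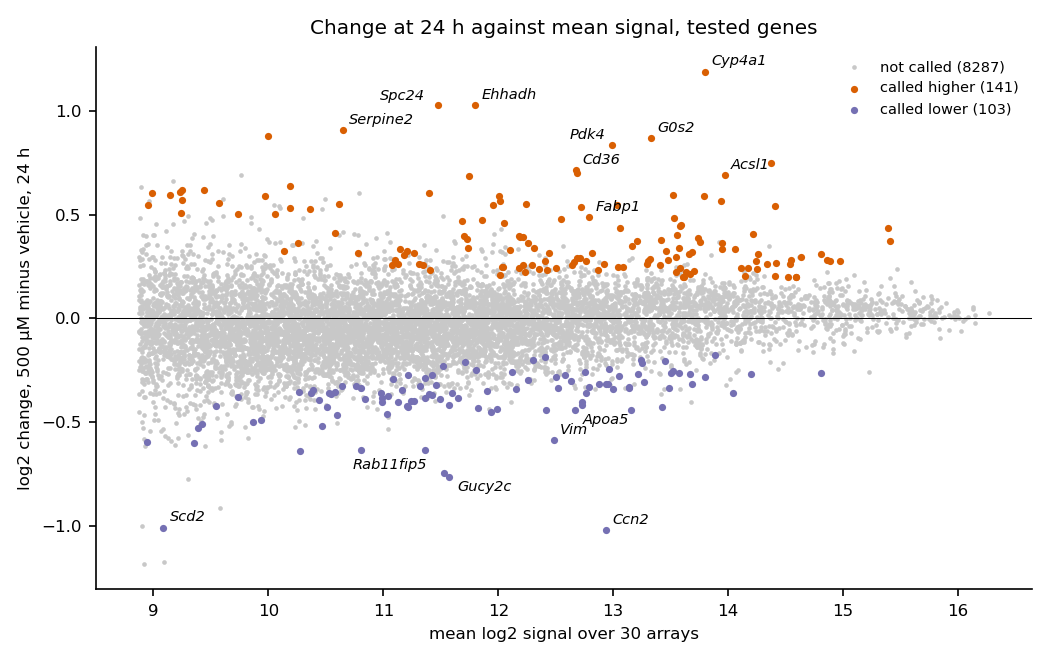
Log2 change at 24 h, 500 µM minus vehicle (vertical axis), against mean log2 signal over the 30 arrays (horizontal axis), with each point a tested gene; orange marks the 141 genes called higher and purple the 103 called lower. Cyp4a1 has the largest rise and Ccn2 the largest fall among called genes, and few called genes lie beyond a log2 change of 1.

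Of 129 tested genes in 8 lists of fatty acid uptake, ω-hydroxylation, peroxisomal and mitochondrial oxidation, thioesters, ketone bodies, lipid droplets and fasting regulators, 46 rose and 0 fell, beside 1.65% and 1.21% of all genes. Their median change was 0.17, and 97 of the 129 were above 0, against 43.2% of all genes. The 5 arrays at 500 µM lay above all 5 vehicle arrays for 47 of the 129, beside 2.32% of all genes. The lists were drawn up with earlier results of these data known, so these counts describe the genes and are no independent evidence of their direction. Of the 46, 40 were called also with the actin ratio as covariate, 35 with the GAPDH ratio and 22 with arrays centred on their medians.

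The largest rise of all was that of Cyp4a1, a fatty acid ω-hydroxylase of the endoplasmic reticulum (probe set 1368934_at). Its signal in the 5 vehicle wells was 4912, 8518, 6805, 7150 and 8463, and in the 5 wells at 500 µM it was 14853, 16480, 15791, 18215 and 15185. The lowest treated well was above the highest vehicle well by a wide margin, and the change was 1.19 ± 0.11 (SE), or 2.28-fold, with adjusted p = 1.54e-08. Cyp4a3, a paralog with the same activity, had vehicle signals of 10952, 17767, 15880, 15303 and 18102 and treated signals of 24874, 27413, 23579, 25177 and 28643. These did not overlap either, and the change was 0.75 ± 0.10 (1.68-fold, adjusted p = 5.91e-06). Probes of such close paralogs can share signal. The other 4 tested members of the Cyp4 list, Cyp4f1, Cyp4f4, Cyp4f6 and Cyp4v3, were not called, and the list's median was 0.03.

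Among genes of peroxisomal β-oxidation 12 of 26 rose and 0 fell, and the list had a median of 0.17. Ehhadh, the bifunctional enzyme that hydrates and then dehydrogenates the acyl-CoA inside the peroxisome, rose most (probe set 1368283_at). Its vehicle signals were 1536, 2289, 1809, 1914 and 2239 and its treated signals 4369, 4748, 4279, 3818 and 2866. The groups did not overlap, but array 5 of the treated wells stood lower than the other 4, and the change of 1.03 ± 0.12 (2.04-fold, adjusted p = 1.3e-06) was 0.68 among arrays below the gap in the actin ratio and 1.27 among those above it. Hacl1, which splits the CoA esters of branched 2-hydroxy acids, went from 10037 ± 1049 (SD, n = 5) to 15143 ± 1037, a change of 0.60 ± 0.07 with adjusted p = 8.16e-07. Ech1, a dienoyl-CoA isomerase, went from 16271 ± 1869 to 23562 ± 1124 (0.54 ± 0.07). Decr2, the peroxisomal dienoyl-CoA reductase, went from 9440 ± 1015 to 13155 ± 135, and its 5 treated wells lay between 13038 and 13382.

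The other 8 called members of this list rose by less, at log2 changes of 0.20 to 0.40. Nudt7, a hydrolase of peroxisomal CoA, changed by 0.40, Pex11a, which drives the division of peroxisomes, by 0.37, and Crot, the peroxisomal carnitine octanoyltransferase, by 0.36. Eci2, a peroxisomal isomerase, changed by 0.34 and Abcd3, a carrier of acyl-CoA into the organelle, by 0.28. Hsd17b4, the D-specific bifunctional enzyme that works beside Ehhadh, changed least, from 22272 ± 1771 to 25530 ± 1410 (0.20, adjusted p = 0.0434). A further bright probe set of Pex11a gave 0.88 (adjusted p = 0.00502 over all probe sets), larger than the 0.37 of the brightest. Cat, the catalase that removes the peroxide made in this organelle, was not called, with a change of 0.08 and a 95% interval of -0.08 to 0.24.

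Thioesterases, which release the fatty acid from its CoA, had the highest median of all lists, 0.30, with 4 of 8 risen and 0 fallen. Acot12, a cytosolic enzyme that also cleaves acetyl-CoA, had vehicle signals of 3352, 5193, 4819, 5096 and 5215 and treated signals of 6842, 6747, 6925, 9405 and 8387. The groups were apart, with a change of 0.70 ± 0.12 (1.62-fold, adjusted p = 0.000346). Acot4, a peroxisomal succinyl-CoA thioesterase, went from 3356 ± 719 to 4857 ± 243 (0.56), Acot8, another peroxisomal member, from 2794 ± 258 to 3635 ± 117 (0.38), and Acot2, of the mitochondrion, from 7652 ± 356 to 9804 ± 1077 (0.35). Acot1, the cytosolic member, was too dim to be tested. Its signals were 71 to 138 in vehicle and 173 to 245 at 500 µM, so its wells did not overlap either. With centred arrays 2 members were called.

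The mitochondrial list had 12 rises and 0 falls among 22 genes, a median of 0.23 and no change above 0.47. The called genes span transport and oxidation. Slc22a5, which brings carnitine into the cell, changed by 0.23, and Slc25a20, which exchanges acylcarnitine across the inner membrane, went from 9561 ± 1125 to 12994 ± 1231 (0.45 ± 0.08, adjusted p = 0.00041). Crat, carnitine acetyltransferase, went from 2500 ± 194 to 3468 ± 407 (0.47 ± 0.10, adjusted p = 0.00598).

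Of the oxidation steps themselves, the first dehydrogenases Acadvl and Acadm changed by 0.26 and 0.28, and Hadh and Hadhb, which act on the later intermediates, by 0.28 each. Eci1, a mitochondrial enoyl-CoA isomerase, rose most among the oxidation enzymes, from vehicle signals of 27342, 31980, 33214, 31973 and 33562 to treated signals of 39324, 42938, 40543, 46076 and 44898. Its groups did not overlap, and its change was 0.44 ± 0.06 with adjusted p = 4.49e-05. Etfb and Etfdh, which pass the electrons on to the respiratory chain, changed by 0.20 and 0.23. Acaa2, the mitochondrial thiolase that ends each round, is in none of the lists and was named after its values were seen. It went from 35521 ± 3827 to 45770 ± 2023 (0.37, adjusted p = 0.00072).

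The step usually held to limit mitochondrial oxidation was not called. Cpt1a, which loads long-chain acyl groups onto carnitine at the outer membrane, had vehicle signals of 4931, 7965, 4803, 5250 and 6025 and treated signals of 6524, 6308, 5521, 6414 and 5810. The groups overlapped fully, and the change was 0.10 with a 95% interval of -0.11 to 0.31 (adjusted p = 0.641). Cpt2, its partner at the inner membrane, was at 0.23 (interval 0.05 to 0.42, adjusted p = 0.15), and Hadha, which forms the trifunctional protein with Hadhb, at 0.17 (0.03 to 0.30, adjusted p = 0.164). Neither met the threshold. With centred arrays 3 members were called instead of 12, and with the actin ratio as covariate 10. Oxidative phosphorylation, to which these electrons go, had 0 of 50 members called in limma, with a median of 0.05. At an unadjusted p under 0.05 it had 5 of 50, beside 1585 of all 8531 genes.

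Of 5 tested genes of ketone body synthesis 1 rose, Acat1, the mitochondrial acetoacetyl-CoA thiolase, from 11636 ± 1097 to 14488 ± 873 (0.32, adjusted p = 0.00224), a call lost with centred arrays (adjusted p = 0.136). Bdh1, which reduces acetoacetate to 3-hydroxybutyrate, had a change of 0.07 with a wide interval of -0.49 to 0.64.

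Among uptake, activation and binding genes 3 of 18 rose and 0 fell. Acsl1, the main long-chain acyl-CoA synthetase of liver (probe set 1370939_at), had vehicle signals of 9914, 11924, 11248, 10696 and 12480 and treated signals of 19397, 18397, 18376, 17413 and 17185. No treated well came near the vehicle wells, and the change was 0.69 ± 0.07 (1.62-fold, adjusted p = 3.22e-08). A further bright probe set of it gave 0.81. Fabp1, the binding protein whose promoter is printed above, had vehicle signals of 6248, 6285, 6630, 7089 and 7274 and treated signals of 8855, 8744, 9848, 9981 and 9649. These groups were apart too, with a change of 0.49 ± 0.06 (1.40-fold, adjusted p = 3.83e-06).

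Cd36, a scavenger receptor and fatty acid translocase, varied widely between wells. Its vehicle signals of 2326, 3181, 3565, 4527 and 4625 overlapped the treated signals of 4231, 4480, 5093, 7301 and 9419. Its change of 0.72 ± 0.20 passed the test at adjusted p = 0.0371 and did not pass with centred arrays (adjusted p = 0.117). Slc27a2, a transporter with synthetase activity, had a log2 difference of 0.20 and was not called (adjusted p = 0.0795).

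Of 18 lipid droplet and lipolysis genes 3 rose and 0 fell. G0s2, an inhibitor of the triglyceride lipase encoded by Pnpla2, had vehicle signals of 8149, 6269, 7324, 7823 and 8068 and treated signals of 14457, 13955, 14260, 10537 and 15988. Array 4 was the lowest of the treated wells and still above the vehicle wells, and the change was 0.87 ± 0.08 (1.83-fold, adjusted p = 2.99e-08). Hilpda, another inhibitor of that lipase, went from 2700 ± 325 to 4045 ± 256 (0.59 ± 0.11), without overlap. Ces1d, a carboxylesterase that hydrolyses triglyceride, went from 9514 ± 1693 to 12905 ± 1575 (0.45, adjusted p = 0.0313), and its groups overlapped. Pnpla2 itself was at 0.26 (adjusted p = 0.117), and Plin2, the main coat protein of liver droplets, at 0.07, with an interval of -0.09 to 0.23.

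Regulators and other fasting genes had 9 rises and 0 falls among 26, and their median was 0.16. Pdk4, the kinase that shuts off pyruvate dehydrogenase and so spares glucose (probe set 1378074_at), had vehicle signals of 6086, 6388, 5459, 5545 and 5569 and treated signals of 11167, 10895, 9599, 9946 and 10277. The change was 0.84 ± 0.08 (1.79-fold, adjusted p = 1.28e-08), and a further bright probe set of it gave 0.86. Angptl4, a secreted inhibitor of lipoprotein lipase, went from 9039 ± 649 to 13616 ± 1167 (0.59 ± 0.06, adjusted p = 6.94e-08). Fgf21, a hormone the liver secretes in fasting, went from 2695 ± 316 to 4201 ± 1245. All its treated wells were above all vehicle wells, but array 5 alone, at 6396, made much of the spread, and the call (0.61 ± 0.15, adjusted p = 0.0264) was lost with the actin ratio as covariate (adjusted p = 0.0564) and with centred arrays (0.124).

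Gk, glycerol kinase, went from 2910 ± 228 to 4042 ± 236 (0.48), and Aqp7, a channel for glycerol, from 1297 ± 75.1 to 1618 ± 176 (0.31). The remaining rises were Ephx2, which hydrolyses fatty acid epoxides, Creb3l3, a liver transcription factor active in fasting, Txnip and Retsat, with changes of 0.24 to 0.30. Ppara itself was too dim to be tested, with signals of 36.8 to 209 in vehicle and 34.8 to 249 at 500 µM, and so was Rxra, at 149 to 515 and 119 to 470. Ppargc1a, their coactivator, was at -0.15 (adjusted p = 0.636), and Vnn1, a pantetheinase often used as a marker of this receptor, at 0.21 (adjusted p = 0.105). With centred arrays 3 members were called.

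**Figure D2:**
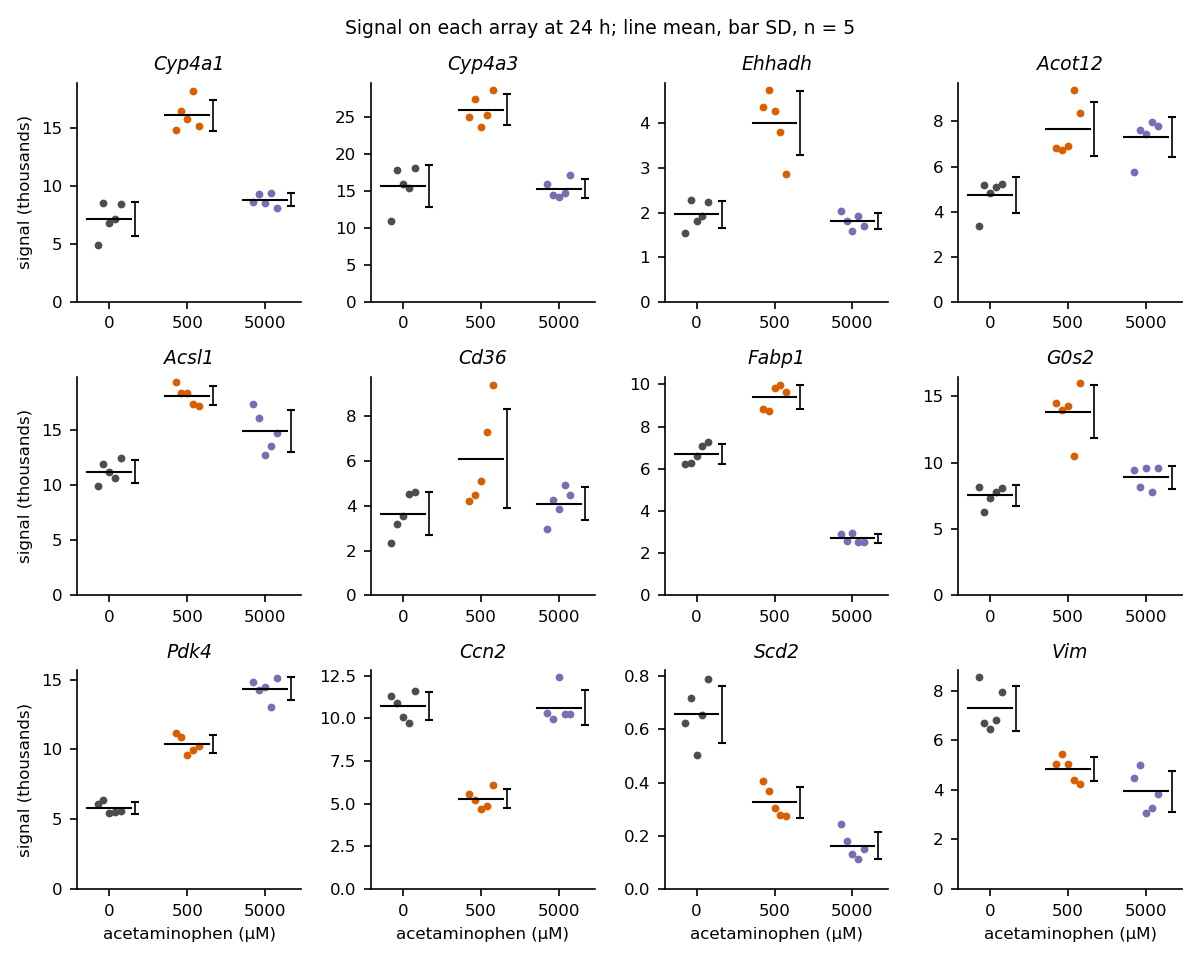
Signal (vertical axis, linear, from 0, in the units marked) of 12 genes on each array at 24 h against acetaminophen dose (horizontal axis, 0, 500 and 5000 µM); points are wells, lines means and bars SD, n = 5. For all 12 but Cd36 the wells at 500 µM lie entirely above or below the vehicle wells, while Fabp1 at 5000 µM lies below vehicle and Ccn2 at 5000 µM lies at the vehicle level.

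**Figure D3:**
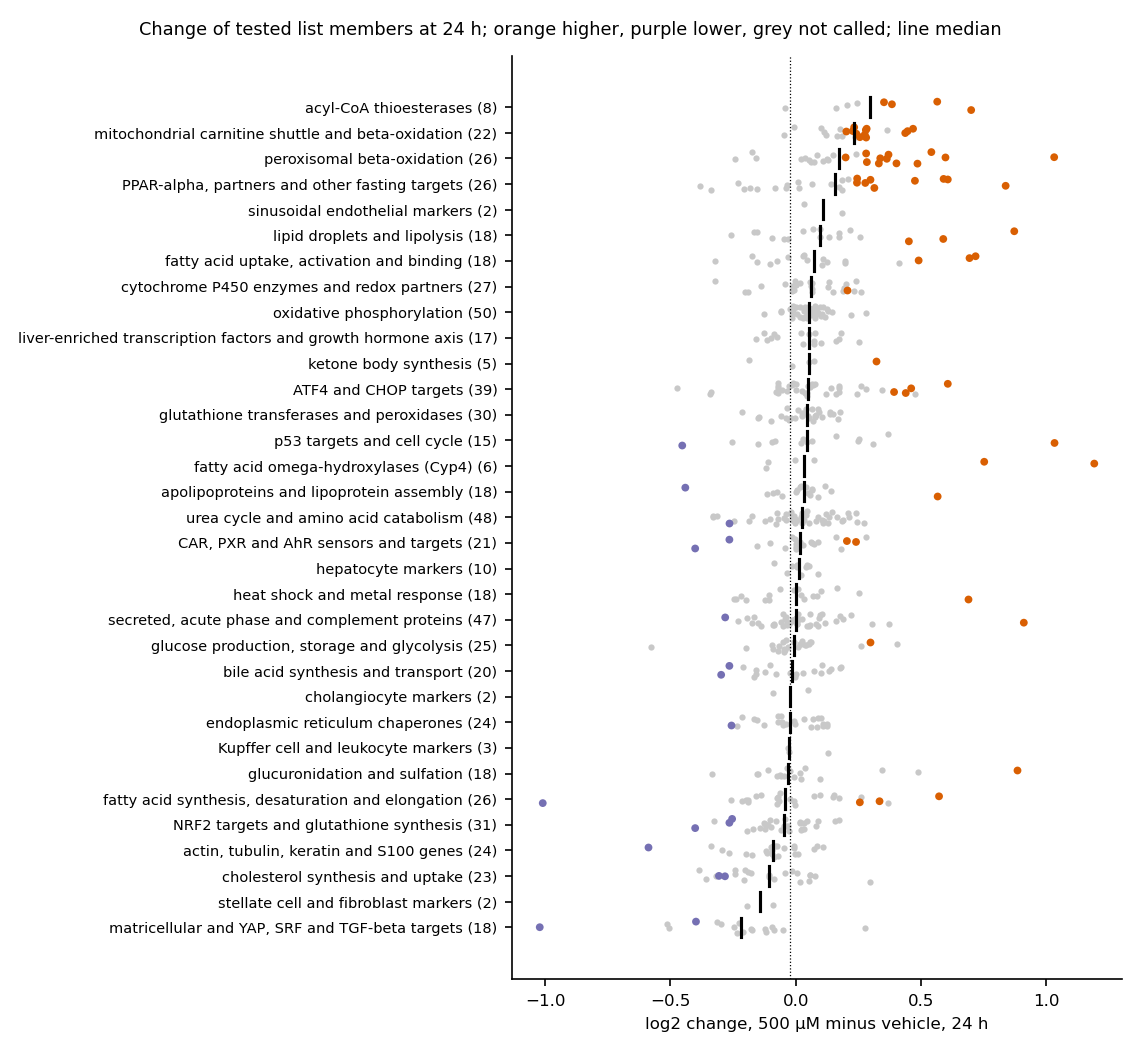
Log2 change at 24 h, 500 µM minus vehicle (horizontal axis), of the tested members of each gene list (vertical axis, number tested in brackets, ordered by median); the black bar is the list's median, the dotted line the median of all tested genes, orange and purple the called members. The thioesterase, mitochondrial, peroxisomal and fasting lists have the highest medians, and the matricellular list the lowest, at -0.22.

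The 46 lipid oxidation genes that rose differed in their level at the higher dose. Levels at 5000 µM were tested directly against those at 500 µM. Over all genes 31.2% differed, 16.8% higher and 14.3% lower at 5000 µM. Of the 46 genes, 21 were lower, 10 were higher and 15 were not called. The same 500 µM wells enter this comparison and the choice of the 46, so these counts are a description.

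The genes that were lower at 5000 µM included both Cyp4a enzymes, Ehhadh, Hacl1 and Fabp1, but not Acot12. The 3 group means of Cyp4a1, from vehicle to the high dose, were 7170 ± 1477, 16105 ± 1333 and 8783 ± 563, the last lower than at 500 µM by 0.87 (adjusted p = 2.76e-07). Ehhadh stood at 1957 ± 312, 4016 ± 723 and 1808 ± 177, Cyp4a3 at 15601 ± 2860, 25937 ± 2047 and 15254 ± 1254, and Hacl1 at 10037 ± 1049, 15143 ± 1037 and 8833 ± 538. Fabp1 was furthest apart, with means of 6705 ± 465, 9415 ± 576 and 2701 ± 214, a log2 difference between the doses of -1.80 (adjusted p = 2.1e-20). Fgf21 stood at 2695 ± 316, 4201 ± 1245 and 1335 ± 211.

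Pdk4, Angptl4 and Hilpda were among the 10 genes that were higher at 5000 µM. Pdk4 stood at 5809 ± 407, 10377 ± 651 and 14351 ± 818 in the 3 groups, Angptl4 at 9039 ± 649, 13616 ± 1167 and 20068 ± 1593, and Hilpda at 2700 ± 325, 4045 ± 256 and 6112 ± 668. Txnip, Crot, Slc22a5, Eci2, Nudt7, Pex11a and Abcd3 made up the other 7, with differences between the doses of 0.15 to 0.71. The mitochondrial enzymes Eci1, Hadh, Hadhb, Etfdh and Acadvl were among the 15 not called, at differences of -0.09 to 0.03. Cpt1a, which was not called at 500 µM, was higher at 5000 µM than at 500 µM by 0.68 (adjusted p = 3.91e-06).

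**Figure D4:**
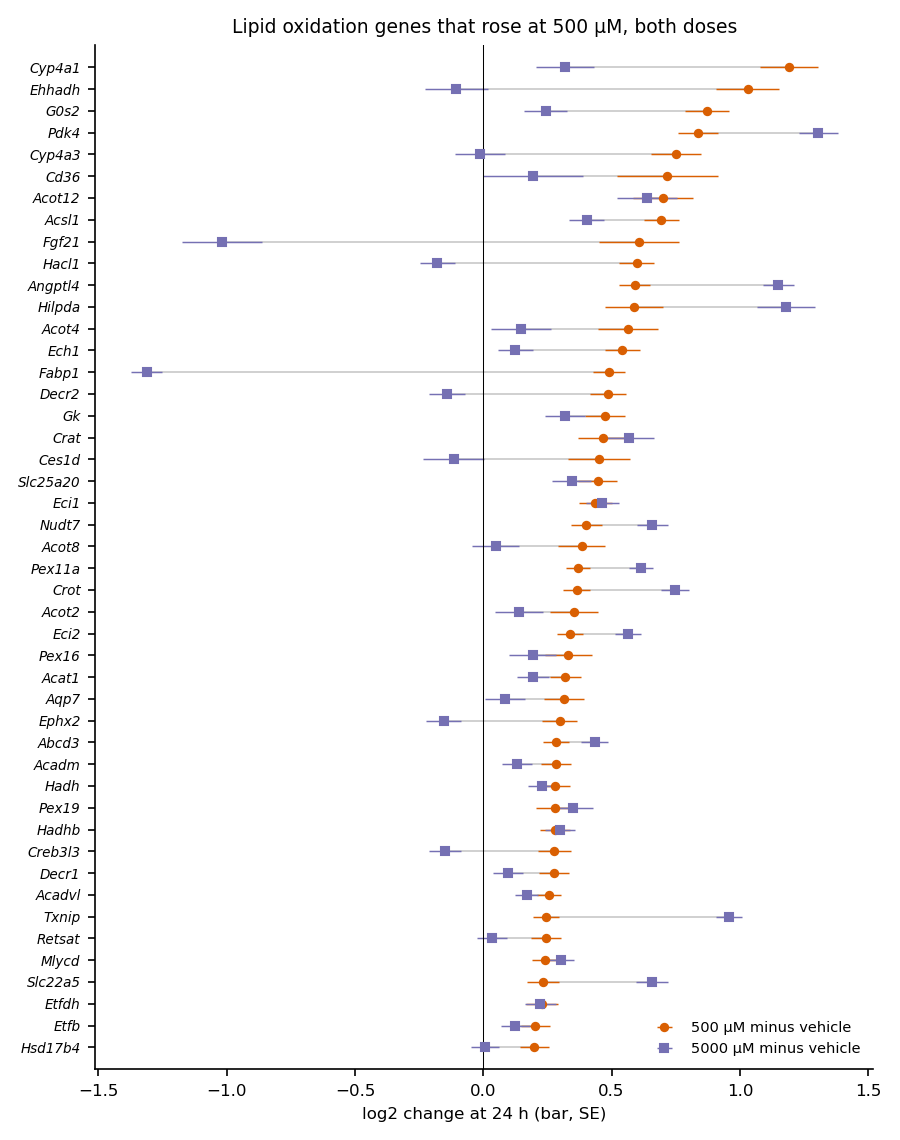
Log2 change at 24 h against vehicle (horizontal axis, bar SE) of the 46 lipid oxidation genes that rose at 500 µM (vertical axis, ordered by that change), with orange circles for 500 µM and purple squares for 5000 µM. Both changes use the same 5 vehicle wells. Fabp1 and Fgf21 lie furthest to the left at 5000 µM, and Pdk4, Hilpda and Angptl4 furthest to the right.

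Of 26 tested genes of fatty acid synthesis, desaturation and elongation and their regulators 3 rose and 1 fell, the list median being -0.04. Scd2, a stearoyl-CoA desaturase (probe set 1367668_a_at), had the second largest fall of all, from vehicle signals of 622, 719, 505, 653 and 788 to treated signals of 406, 368, 306, 279 and 275. Its change was -1.01 ± 0.17 (2.01-fold lower, adjusted p = 0.00034), and the groups did not overlap. The treated signals of Scd2 all lay below 469, the lowest mean signal of a tested gene, so the size of its fall is less certain. Its bright paralog Scd was at -0.02, with an interval of -0.15 to 0.10.

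Elovl6, which lengthens palmitate, rose from 1984 ± 172 to 2498 ± 171 (0.33), and Agpat2, an acyltransferase of triglyceride synthesis, by 0.26, and both calls were lost with centred arrays (adjusted p = 0.173 and 0.308). Abcg5, which exports plant sterols into bile, rose from 474 ± 55.9 to 706 ± 94.1 (0.57, adjusted p = 0.025). Fasn, Acaca, Acly and Srebf1 were not called, with changes of -0.01, 0.07, -0.07 and 0.15. Fasn had an interval of -0.28 to 0.27. Of 23 cholesterol synthesis and uptake genes 0 rose and 2 fell (list median -0.11): Cyp51, the lanosterol demethylase, from 11928 ± 1196 to 9639 ± 852 (-0.31, adjusted p = 0.0132, with a further bright probe set at -0.52), and Pmvk, phosphomevalonate kinase, by -0.28. With centred arrays both calls were lost (adjusted p = 0.271 for Cyp51 and 0.282 for Pmvk). Sqle, Insig1 and Fdft1 were at -0.21, -0.11 and -0.09 and were not called. At an unadjusted p under 0.05 in limma the cholesterol list had 10 of 23 genes, beside 1585 of all 8531.

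Among 18 apolipoproteins and lipoprotein assembly genes 1 rose and 1 fell. Apoa5, which promotes triglyceride clearance from plasma, had vehicle signals of 8856, 9180, 8734, 9126 and 9595 and treated signals of 6413, 6988, 6143, 7670 and 6393. The groups were well apart, and the change was -0.44 ± 0.07 (1.36-fold lower, adjusted p = 0.000369). Angptl8, which takes part in holding back lipoprotein lipase, rose from 12601 ± 1612 to 18584 ± 1648 (0.57, adjusted p = 0.000369). The main apolipoproteins Apoa1 and Apob were at 0.04 and 0.02 and were not called.

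Several of the 15 largest rises with non-overlapping wells lie outside lipid oxidation. Spc24, a subunit of the kinetochore, had vehicle signals of 2395, 1959, 2462, 2540 and 1884 and treated signals of 4856, 4836, 5498, 4270 and 3591. The change of 1.03 ± 0.16 (2.05-fold, adjusted p = 7.64e-05) was the second of all, while of the other 14 tested genes of the p53 and cell cycle list 0 rose and 1, Sesn1, fell, a call lost with the actin ratio as covariate (adjusted p = 0.059) and with centred arrays (0.115). Serpine2, a secreted protease inhibitor, had vehicle signals of 556, 496, 747, 569 and 539 and treated signals of 912, 1201, 990, 1109 and 1231. The change was 0.91 ± 0.10 (1.88-fold, adjusted p = 2.38e-07). At 5000 µM its mean was higher still, at 1723 ± 65.3.

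Sult1c3, a sulfotransferase, went from 873 ± 132 to 1601 ± 196 (0.88 ± 0.12, adjusted p = 2.01e-05) and stood at 793 ± 112 at 5000 µM. Hamp, which encodes the iron hormone hepcidin, had vehicle signals of 2470, 1192, 1882, 1975 and 1503 and treated signals of 3022, 2811, 3021, 2649 and 2619. Its groups did not overlap, with a change of 0.69 ± 0.18 (adjusted p = 0.0313, and 0.0591 with centred arrays), and the mean at 5000 µM was 9263 ± 1825. The others of the 15 were Faxdc2, A1cf and LOC100911946, which rose by 0.60 to 0.64.

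Other rises were named after their values were seen. Abcg1 and Lpcat3, a sterol transporter and a phospholipid acyltransferase, changed by 0.55 each, from 1162 ± 208 to 1698 ± 228 and from 5631 ± 829 to 8234 ± 1251. Hsdl2, a peroxisomal dehydrogenase, and Clpx, a mitochondrial chaperone, changed by 0.41 and 0.38. Cib2, a calcium-binding protein, went from 551 ± 99.1 to 771 ± 20.6.

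The largest fall was that of Ccn2, a matricellular protein that is a standard target of YAP and TGF-beta signalling (probe set 1367631_at). Its vehicle signals were 11292, 10905, 10058, 9740 and 11599, and its treated signals 5590, 5204, 4701, 4873 and 6089. No treated well came near a vehicle well, and the change was -1.02 ± 0.09 (2.03-fold lower, adjusted p = 7.42e-09). It was -0.96 among arrays below the gap in the actin ratio and -1.06 among those above it. At 5000 µM the mean was 10622 ± 1008, close to the vehicle mean of 10719 ± 796, and the doses differed by 1.01 (adjusted p = 1.99e-10).

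Of 18 tested matricellular and YAP, SRF and TGF-beta targets 0 rose and 2 fell, Ccn2 and Ajuba, a LIM protein of cell junctions (-0.40, adjusted p = 0.0378). The call of Ajuba was lost with the actin ratio as covariate (adjusted p = 0.0796) and with centred arrays (0.276), and that of Ccn2 was not. The list's median of -0.22 was the lowest of all lists, and 1 of its 18 members was above 0, against 43.2% of all genes. At 48 h the list's median was 0.05, with 4 members called higher and 2 lower. In limma at 24 h, 13 of the 18 had an unadjusted p under 0.05, beside 1585 of all 8531 genes. As the lists were drawn up with earlier results of these data known, these counts are a description. Ccn1, a close relative of Ccn2, had overlapping signals of 362 to 762 in vehicle and 388 to 490 at 500 µM (adjusted p = 0.298). Ankrd1, another YAP target, was too dim to be tested, at 147 to 253 and 19.8 to 158.

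Vim, the intermediate filament protein vimentin (probe set 1367574_at), had vehicle signals of 8536, 6697, 6441, 6818 and 7949 and treated signals of 5038, 5454, 5050, 4400 and 4248. The groups did not overlap, and the change was -0.59 ± 0.12 (adjusted p = 0.00289). Hepatocytes gain vimentin in culture and non-parenchymal cells carry it, and in these bulk samples fewer cells of a type and less RNA per cell cannot be told apart. The summed signal of the 11 stellate cell and fibroblast markers was 3003 to 3749 in vehicle and 3175 to 3405 at 500 µM, and that of the 11 Kupffer cell and leukocyte markers 23544 to 31244 and 28165 to 32790, so the ranges of both sums overlapped between the groups. Most of their members, such as Ptprc, Col1a1 and Des, were below the signal needed to test. Of the other 23 tested actin, tubulin, keratin and S100 genes 0 were called in limma and 4 had an unadjusted p under 0.05, beside 1585 of all 8531 genes. The median of the list was -0.09. Krt8 and Krt18, the keratins of hepatocytes, were at -0.09 and -0.07, and Actg1, a cytoplasmic actin, at -0.00. S100a6, a calcium-binding protein, was at -0.34 (adjusted p = 0.108), with no overlap between the wells.

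Gucy2c, Cxadr and Myadm were also among the 15 largest falls with non-overlapping wells. Gucy2c, a receptor guanylyl cyclase (probe set 1369162_at), had vehicle signals of 4441, 5199, 4221, 4193 and 4598 and treated signals of 3330, 2768, 2457, 2528 and 2328, a change of -0.76 ± 0.10 with adjusted p = 7.31e-06. Cxadr, the coxsackievirus and adenovirus receptor of tight junctions, went from 2086 ± 157 to 1511 ± 115 (-0.46), and Myadm, a membrane protein of junctions, from 13358 ± 1225 to 9823 ± 966 (-0.44, adjusted p = 0.000297). Gathered from the 103 falls after their values were seen, and so with no count or test as a group, the cadherins Cdh1 and Cdh2 changed by -0.36 and -0.34, the protocadherin Fat1 by -0.44, the desmosome protein Dsp by -0.26, the junction protein Cgnl1 by -0.34 and the proteoglycan Sdc1 by -0.34, with adjusted p from 0.00645 for Fat1 to 0.0389 for Sdc1. Further bright probe sets gave -0.25 for Cdh2 and -0.49 for Sdc1, neither called. With centred arrays only 8 genes of all tested were called lower. None of these junction genes was below 0 at 48 h, where the groups were also split by actin ratio. There Cdh1, Fat1, Dsp and Cgnl1 changed by 0.30, 0.47, 0.31 and 0.39, and Cdh2 and Sdc1 by 0.02 and 0.10.

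Among the other falls of these 15, Rab11fip5, an effector of recycling endosomes, changed by -0.75 ± 0.14 (adjusted p = 0.00121), with signals of 3526 to 6124 in vehicle and 1923 to 3287 at 500 µM. B4galt5, a galactosyltransferase that makes lactosylceramide, went from 3824 ± 413 to 2477 ± 364 (-0.63), and Snx17, a sorting nexin, from 687 ± 9.66 to 481 ± 78.4 (-0.53). Atosb, Olfml1, Zfp57, Ttc39a, Casc3 and Sesn1 made up the rest, with changes of -0.63 to -0.45. A further bright probe set of Atosb gave -0.16 and that of Sesn1 gave 0.08, neither called, so their falls rest on the brightest probe set.

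The 500 µM arrays 4 and 5, which had the lowest actin ratios, were the lowest 2 of the 5 treated arrays for 59 of the 103 falls (57.3%), against 2137 of all 8531 tested genes, and the highest 2 for 44 of the 141 rises (31.2%, against 18.3%). The median change of the falls was -0.44 among arrays below the gap and -0.28 among those above it, and that of the rises 0.36 and 0.33. All 141 rises and all 103 falls kept their sign in both subsets, to which these same arrays contributed when the genes were called. When the ratio entered the fit as a covariate, which called 1.35% of all genes higher and 0.821% lower, 107 of the 141 rises and 59 of the 103 falls were called.

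Counts for enzymes that clear or activate acetaminophen, and for the liver functions given after them, stand beside the 2.86% of all genes called, and 1 or 2 calls in such a list do not set it apart from that share. Counts at an unadjusted p under 0.05 in limma stand beside 1585 of all 8531 genes. They were 10 of 27 P450 and redox partner genes, 4 of 18 glucuronidation and sulfation genes and 9 of 31 NRF2 targets. The CAR, PXR and AhR list had 6 of 21, ATF4 and CHOP targets 15 of 39 and endoplasmic reticulum chaperones 3 of 24. The heat shock list had 4 of 18, p53 and cell cycle 8 of 15, bile acid 3 of 20 and glucose 3 of 25. Urea cycle and amino acid genes had 13 of 48 and secreted proteins 7 of 47. Of 27 tested cytochrome P450 and redox partner genes 1 rose, Cyp2c6v1, from 23034 ± 784 to 26550 ± 1353 (0.20, adjusted p = 0.0455), and its call was lost with the actin ratio as covariate (adjusted p = 0.0577) and with centred arrays (0.36). Cyp2e1, which oxidizes acetaminophen, had vehicle signals of 5806, 8258, 7461, 7221 and 7990 and treated signals of 7943, 8440, 8522, 9165 and 9075. The groups overlapped slightly, and the change of 0.24 (interval 0.02 to 0.46) was not called at adjusted p = 0.214. Cyp3a23-3a1 and Cyp1a2 were at 0.00 and -0.00, with intervals of -0.16 to 0.16 and -0.25 to 0.24. Cyp2c11, a male-specific enzyme, was at -0.32 (adjusted p = 0.137), Cyp3a2 at 0.20 (adjusted p = 0.18) and Por, which passes electrons to the P450s, at 0.07. A further bright probe set of Por gave 0.40 and was not called. Cyp1a1, the classic AhR target, had a change of -0.10 with an interval of -0.41 to 0.20.

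Of 18 glucuronidation and sulfation genes Sult1c3 alone was called. Ugt2b1, a glucuronosyltransferase, was at -0.16 (interval -0.35 to 0.04), and Sult1a1, the main phenol sulfotransferase, at 0.02 (-0.14 to 0.17). Sult1e1, the estrogen sulfotransferase, had no overlap between its wells, with 785 to 932 in vehicle and 972 to 1190 at 500 µM, but its change of 0.34 was not called (adjusted p = 0.166). Among 21 CAR, PXR and AhR sensors and targets 2 rose and 2 fell: Nr1i2, the PXR receptor itself (0.24, adjusted p = 0.0338), and Cyp2c6v1 rose, and the efflux pumps Abcc2 and Abcc3 fell. Abcc3, of the basolateral membrane, had vehicle signals of 9259 to 10297 and treated signals of 6210 to 8782, without overlap (-0.40, adjusted p = 0.0278). Abcc2, of the canaliculus, went from 32515 ± 2815 to 27016 ± 1562 (-0.26, adjusted p = 0.0315). With centred arrays 0 members of this list were called, and with the actin ratio as a covariate 1.

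NRF2 is the factor that turns on defence genes against electrophiles. Of 31 tested NRF2 targets and glutathione synthesis genes 0 rose and 3 fell (list median -0.05): the 2 pumps just named and Gclc, the catalytic subunit of the enzyme that limits glutathione synthesis. Gclc had vehicle signals of 12575, 12412, 14206, 12575 and 13365 and treated signals of 11584, 12163, 11451, 9525 and 10057. Its groups were apart by little, with a change of -0.25 ± 0.06 (1.19-fold lower, adjusted p = 0.024), and the call was lost with the actin ratio as covariate (adjusted p = 0.0519) and with centred arrays (0.338). Gclm, its regulatory partner, was at 0.03 (interval -0.13 to 0.18), Nqo1 at 0.02 (-0.13 to 0.17), Hmox1 at 0.04 (-0.12 to 0.21) and Srxn1 at -0.11 (-0.24 to 0.02). Txnrd1, thioredoxin reductase, was at -0.10 and was not called. Further bright probe sets gave 0.10 for Srxn1 and 0.08 for Txnrd1, neither called. Of 30 glutathione transferases and peroxidases 0 were called in limma and 4 had an unadjusted p under 0.05, with Gsta1 at -0.00 (-0.15 to 0.14), Gstm1 at 0.03 and Gpx1 at 0.01 (-0.10 to 0.12).

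ATF4 and CHOP are the factors of the amino acid and endoplasmic reticulum stress response, and of 39 tested targets 4 rose and 0 fell, the list median being 0.05. Ddit3, which encodes CHOP, had vehicle signals of 4448, 3887, 4767, 4534 and 4460 and treated signals of 5951, 5390, 5720, 5065 and 6984. The groups did not overlap, and the change was 0.39 ± 0.08 (1.31-fold, adjusted p = 0.00503). Chac1, which degrades glutathione, went from 3896 ± 366 to 5365 ± 560 (0.46), and Ddit4, an inhibitor of mTORC1, from 6468 ± 811 to 8748 ± 927 (0.44). Fgf21, described above, is the fourth. Asns, Trib3 and Atf4 itself were not called, at 0.28, 0.34 and 0.16 (adjusted p = 0.0953, 0.21 and 0.194). With centred arrays 2 members were called.

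Of 24 chaperones of the endoplasmic reticulum 0 rose and 1, Ero1b, fell (-0.26, adjusted p = 0.0323), a call lost with the actin ratio as covariate (adjusted p = 0.066) and with centred arrays (0.335). Hspa5, the main one, was at 0.03 with an interval of -0.09 to 0.16. In the heat shock and metal list Hamp was the sole call among 18, and Hspa1a was at -0.12. Mt1, metallothionein, was too dim to be tested, at 325 to 531 in vehicle and 336 to 574 at 500 µM. Cdkn1a and Mdm2, p53 targets, were at -0.15 and -0.08, and further bright probe sets gave 0.23 for Cdkn1a and 0.00 and 0.16 for Mdm2, none called.

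Of 20 bile acid synthesis and transport genes 0 rose and 2 fell, Abcb4, the canalicular phospholipid pump (-0.30, adjusted p = 0.0313), and Abcc2. Both calls were lost with the actin ratio as covariate (adjusted p = 0.066 and 0.0732) and with centred arrays (0.234 and 0.37). Cyp7a1, which limits bile acid synthesis, had an uncertain change of 0.10 with an interval of -0.29 to 0.49, and Abcb11, the bile salt pump, was at -0.12. Cyp8b1, which makes cholic acid, and Slc10a1, which takes bile salts up from blood, were at 0.14 and 0.18 and were not called. Of 48 urea cycle and amino acid genes 1 fell, the ornithine carrier Slc25a15 (-0.27, adjusted p = 0.00985, and 0.228 with centred arrays), for which further bright probe sets ranged from -0.33 to 0.18. Cps1, Ass1 and Arg1, enzymes of the urea cycle, were at -0.02, -0.00 and 0.04 and were not called, and neither were Asl at -0.02, Otc at -0.04 and Tat at 0.05.

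Fbp1, a gluconeogenic phosphatase, was the sole call among 25 glucose genes and rose by 0.30 (adjusted p = 0.00503, and 0.216 with centred arrays), while Pck1, with overlapping wells, was at 0.40 (adjusted p = 0.214) and Gckr, the regulator of glucokinase, at 0.01. Among 47 secreted proteins Serpine2 rose and Mbl2, a mannose-binding lectin, fell by 0.28 on the log2 scale (adjusted p = 0.00611, and 0.276 with centred arrays). A further bright probe set of Mbl2 gave 0.04. Of 17 liver transcription factors 0 were called in limma and 3 had an unadjusted p under 0.05, and Hnf4a and Cebpa were at -0.09 and 0.10. Further bright probe sets gave 0.20 and 0.19 for Hnf4a and -0.10 to 0.05 for Cebpa, none called. Alb, albumin, was at 0.09 (adjusted p = 0.742).

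The same dose was compared with vehicle at 48 h in wells that share no array with those at 24 h. That comparison was much wider, with 42.6% of genes called, 24.0% higher and 18.6% lower, and its groups were split by array quality: all 5 wells at 500 µM were above the gap in the actin ratio and all 5 vehicle wells below it, with a mean difference of 0.62. With the ratio as a covariate 212 genes (2.49%) were higher and 127 (1.49%) lower.

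At 48 h most lipid oxidation rises were seen again. Of the 46 genes, 43 were above 0 at 48 h, and 37 were called higher and 0 lower. With the ratio as a covariate 34 were called, counted without regard to direction. Of the other 95 genes that rose at 24 h, 30 were called higher at 48 h and 12 lower, beside the 24.0% and 18.6% of all genes. Cyp4a1 went from 11182 ± 1313 to 24197 ± 3239 at 48 h, a change of 1.11 against 1.19 at 24 h, and the difference between the times was not called (-0.08 ± 0.16, adjusted p = 0.724). Ehhadh went from 2219 ± 224 to 8684 ± 1047, a change of 1.97, larger than at 24 h by 0.94 ± 0.17 (adjusted p = 0.000185). Fabp1 changed by 0.49 at both times. The 3 genes not above 0 were Hilpda, Etfb and Cd36, the last at -0.29 (adjusted p = 0.239) and at 0.63 with the ratio as a covariate.

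Of the 103 genes that fell at 24 h, 30 were below 0 at 48 h, 15 were called lower and 43 were called higher, and with the ratio as a covariate 48 were below 0 and 8 called lower. Of all genes, 52.0% were above 0 at 48 h, 18.6% were called lower and 24.0% higher, and 1.49% were called lower with the covariate. As a set the falls were thus not called lower at 48 h more often than all genes in the main fit. Among the 15 falls called lower were Ccn2, at -0.79 ± 0.09 (adjusted p = 1.57e-07) and at -0.68 with the covariate, Apoa5 at -0.94, Scd2 at -0.73 and Vim at -0.54. Among genes called at 24 h, those with the most certain difference between the times were Add1, Ankh, Rgp1, Fhip2a, Gucy2c and Eif4g1, all lower at 24 h and called higher at 48 h. The 24 h values by which they were chosen enter this difference, so it is a description. Add1, a membrane skeleton adducin, changed by -0.43 at 24 h and 0.86 at 48 h, a difference of 1.29 ± 0.16 (adjusted p = 9.45e-06). At 24 h a further bright probe set gave -0.14 for Add1 and -0.21 for Ankh, neither called. Over all genes 3126 differences between the times were called (36.6%), and 3 with the ratio as a covariate, so time and array quality cannot be told apart there.

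**Figure D5:**
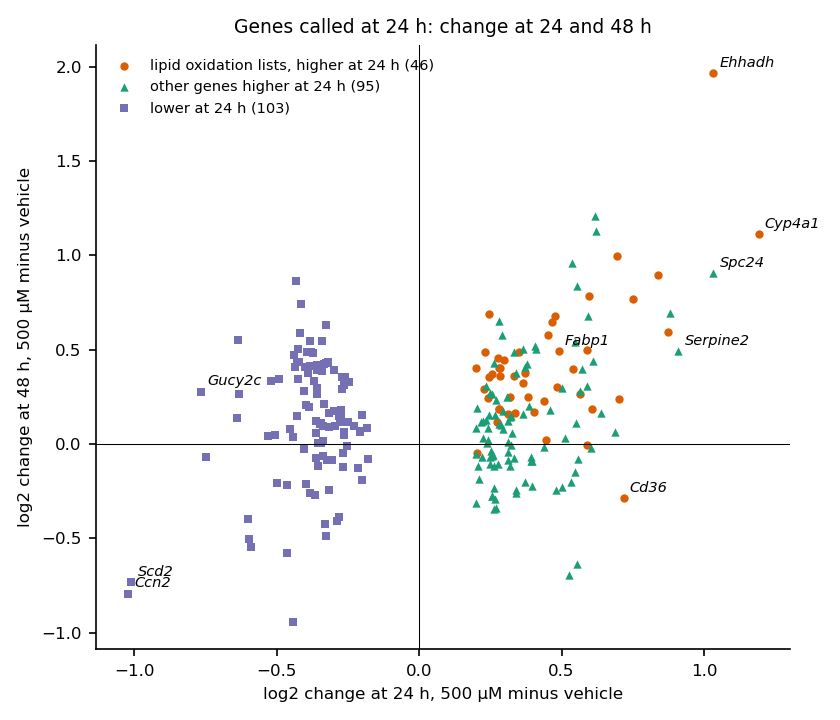
Log2 change at 48 h (vertical axis) against that at 24 h (horizontal axis), both 500 µM minus vehicle in separate wells, of the 244 genes called at 24 h; orange circles are the 46 lipid oxidation genes, green triangles the other 95 rises and purple squares the 103 falls. Nearly all orange points lie above 0 at 48 h, the green ones lie on both sides, and most purple ones lie above 0, apart from Ccn2, Scd2 and others at the lower left.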

How the data were processed

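Purchased rat hepatocytes were profiled on 30 arrays, 10 of which form this comparison. The deposited values are signal intensity on a linear scale, computed by the authors with MAS5 per the submitters' processing notes, which give no version; each array had been scaled. Of 31099 probe sets 57 were controls, 20826 had 1 gene symbol in the platform annotation, 436 several and 9780 none, which left 14217 genes, each by its brightest probe set. Taking log2 of the deposited intensity, the brightest 60% by mean over all arrays (8531 genes) were fitted with limma 3.58.1 in R 4.3.3 as 6 group means, with an intensity trend and 24 residual degrees of freedom. The fit was tested on simulated data. Single values were compared by exact permutation in scipy 1.17.1. Members and lists were chosen with earlier results of these data known. Named are the 15 largest non-overlapping rises and falls, called list members (the 6 largest changes where more were called), key list genes, and the 6 most certain differences between times among genes called at 24 h. Other lipid genes are named as members of the lists, and genes chosen after their values were seen are marked. Alternatives were scaling, dim-gene filters, pseudocount, probe set choice, samples fitted, array quality and each replicate left out; a GAPDH ratio covariate and a block of title numbers were added after seeing the data.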

Additional observations from a re-analysis of the deposited data

Results flagged for a closer look

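In 27 of 316 groups of 5 arrays, at 24 h in vehicle or at 500 µM, the signal of a gene named here had 1 array far from the other 4, by Dixon's criterion of 0.71, a gap that chance gives in about 1 of 20 groups. Among vehicle wells the far array was the highest for Abcc3 (10297), Actg1 (60899), Apoa1 (58277), Arg1 (77924), Cps1 (69384), Cyp3a23-3a1 (81004), Ero1b (5690), Gsta1 (64079), Krt8 (66359), Serpine2 (747) and Sult1a1 (86013). It was the lowest vehicle array for Acot12 (3352), Acot4 (2114), Agpat2 (4217), Eci1 (27342), Fbp1 (18790), Fhip2a (1755), Lpcat3 (4186) and Slc25a15 (13941). Among wells at 500 µM the far array was the highest for Actg1 (56590), Asns (11425), Atf4 (34823), Fgf21 (6396), Gckr (5799) and Hsdl2 (19883), and the lowest for Cxadr (1309) and Olfml1 (263).

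The effect of 500 µM differed between 24 h and 48 h, by the difference of the 2 changes in limma at an adjusted p under 0.05, for 44 of 93 genes called at 24 h and named here, beside 36.6% of all tested genes. At 48 h all 5 vehicle arrays were below and all 5 arrays at 500 µM above the gap in the actin ratio, and with that ratio as a covariate the difference was called for 3 genes of all tested. The change at 48 h minus that at 24 h, in log2, was above 0 for Add1 (1.29), Atosb (1.19), Eif4g1 (1.16), Gucy2c (1.04), Fhip2a (0.96), Ehhadh (0.94), Rgp1 (0.93), Fat1 (0.91), B4galt5 (0.90), Ankh (0.89), Casc3 (0.84), Abcc3 (0.81), Cgnl1 (0.73), Rab11fip5 (0.68), Cdh1 (0.66), Ero1b (0.62), Ajuba (0.60), Dsp (0.58), Snx17 (0.57), Zfp57 (0.56), Sesn1 (0.53), Faxdc2 (0.51), Myadm (0.48), Abcb4 (0.47), Sdc1 (0.43), Mbl2 (0.43), Cdh2 (0.35), Abcc2 (0.31), Acsl1 (0.30), Gclc (0.25) and Hsd17b4 (0.20). It was below 0 for Cd36 (-1.01), Cib2 (-0.73), A1cf (-0.63), Hilpda (-0.59), Apoa5 (-0.50), LOC100911946 (-0.47), Ddit3 (-0.46), Acot12 (-0.46), Ddit4 (-0.45), Lpcat3 (-0.44), Slc25a20 (-0.43), Serpine2 (-0.42) and Nudt7 (-0.23).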

How the results depend on the processing

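Of 244 genes called at 24 h, arrays centred on their medians gave 51 (43 higher, 8 lower), a fit of only the 10 arrays compared 100 (67 and 33), the ratio gap as a block 447 (198 and 249), the GAPDH ratio as a covariate, added after seeing the data, 111 (81 and 30), only arrays below the gap 84 (20 and 64) and only arrays above it 21 (17 and 4). Leaving out each replicate in turn gave 116 to 290: 155 without vehicle replicate 1, 156 without vehicle replicate 2, 151 without 500 µM replicate 4 and 116 without 500 µM replicate 5. With the actin ratio as covariate the count at 48 h went from 3632 to 339 and that of differences between times from 3126 to 3, and with the gap as a block to 484 and 682. With centred arrays the called members were 2 thioesterases, 3 mitochondrial genes, 3 fasting genes, 2 fatty acid synthesis genes, 2 ATF4 and CHOP targets, 0 NRF2 targets and 0 CAR, PXR and AhR genes (1 and 1 with the ratio as a covariate). Eif4g1 turned from a fall to 0.013 (adjusted p = 0.978 in limma) with the mean of all its probe sets. The cause was not tested. Of 93 named genes called, 41 were called with centred arrays, 75 with the actin ratio as a covariate, 59 with the GAPDH ratio and 93 with a pseudocount of 100, and no other named call changed direction under any alternative run. The labels give no replicate numbers shared between groups, but the titles carry a running number in which each 6 in a row hold 1 array of each group. Taking these sets as a replicate block, added after seeing the data, gave 322 calls (179 and 143), 242 of them among the 244 in the same direction. Deviations from the group means of same-set vehicle and 500 µM arrays correlated at 0.15, 0.19, -0.12, 0.23 and 0.15, and 2 of 5 vehicle arrays correlated best with the 500 µM array of their own set, so the sets were not taken as pairs. Signal over background limits the dim genes, which were not tested.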
